A study of Mus musculus with 2 samples.

Results

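Glycolysis, gluconeogenesis and the enzymes around pyruvate were described here through 36 genes, chosen by symbol, of the 18919 in the expression table. All 36 were in the table, and 35 reached 1 FPKM (fragments per kilobase of transcript, scaled to library size, the authors' unit of transcript level) in at least 1 library. The other, Pfkfb1, was at 0.58 FPKM in controls and 0.60 in knockouts, and Eno2 passed only through the knockout pool. RNA was taken from the intestine of mice on the C57BL/6 background at 2 months of age, untreated and kept under specific-pathogen-free conditions. The control pool had the genotype APCmin, the Min allele of Apc, with which mice develop intestinal adenomas. The knockout pool had the genotype APCmin; Setd2IEC-/-, in which the histone H3 lysine 36 methyltransferase Setd2 was deleted in intestinal epithelial cells, on the same APCmin mutation that the controls carry. Which Cre line drove the deletion is not given in the sources used here, and whether cells outside the epithelium kept the gene was not measured here. Each genotype was 1 library from the mixed RNA of 3 littermates, so no difference below has a replicate check and no p-value was computed.

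Glycolysis turns glucose into pyruvate, and each step can be run by isoforms that differ in tissue and in control. Hexokinase, phosphofructokinase and pyruvate kinase catalyse the steps that are in practice irreversible. Gluconeogenesis bypasses these with glucose-6-phosphatase, fructose-bisphosphatase and the pair of pyruvate carboxylase and PEP carboxykinase. Pyruvate either becomes lactate or enters mitochondria, where pyruvate dehydrogenase makes acetyl-CoA under the control of inhibitory kinases. Absorptive enterocytes of the small intestine also take up and metabolise dietary fructose with isoforms shared with the liver, while dividing crypt cells and tumours are known for high glycolytic flux.

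Expected counts totalled 8809678 for controls and 8646358 for knockouts. Setd2 was at 6.87 FPKM in controls and 3.47 in knockouts, and its scaled count ratio was 0.504 (95% interval of counting error 0.432 to 0.588). Enterocyte markers were abundant in both pools, as the tissue label says. Their 14 genes summed to 33082 FPKM in controls and 24058 in knockouts, and 13 of the 14 had a log2 ratio below 0, beside 4931 of 13253 measured genes. Crypt and proliferation markers summed to 276 and 404 FPKM, and all 14 had a ratio above 0, beside 62.5% of all measured genes. Transcripts of pancreatic acinar cells summed to 141 FPKM in controls and 2777 in knockouts, with 12 of 13 genes at least 2-fold higher, beside 2.78% of all measured genes. The 10 stomach genes summed to 13.4 and 162 FPKM, with Gkn2, Muc5ac and Gif at 0 in the control pool alone. In bulk RNA, fewer cells of a type and less RNA per cell cannot be told apart, and the part of these markers in the results below was not tested.

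Most of the enzyme genes were close between the pools, and the differences lay in single isoforms. By the rule used for calls (log2 of the ratio of FPKM plus 1, knockout over control, of 1 or more, or -1 or less), 1 of 35 measured members was at least 2-fold higher and 0 were lower. Over all 13253 measured genes the same rule called 2.78% higher and 1.28% lower, so 2.86% of the members higher is near the background. A second rule asked for a 1.5-fold difference and a counting interval that leaves out 1. It called 3 members higher (Hk2, Aldoa and Pck2), against 6.97% of all genes, and 1 lower (Aldoc), against 2.64%. These shares, 8.57% and 2.86% of the members, are also near the background. The median log2 ratio of the members was 0.05, beside 0.08 over all measured genes. Of the 35 members 18 had a ratio above 0, beside 14 after scaling by the median ratio and 12 after TMM scaling. Without a pseudocount these scalings move a log2 ratio by -0.08 and -0.11, and with it low genes move less. Over all measured genes 62.5% had a ratio above 0 as deposited. By counting error alone, 10 members (28.6%) had an interval above 1 and 11 (31.4%) below 1, against 28% and 12.5% of all genes. Abundant genes have narrower intervals, and the part of abundance in these shares was not tested.

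**Figure D1:**
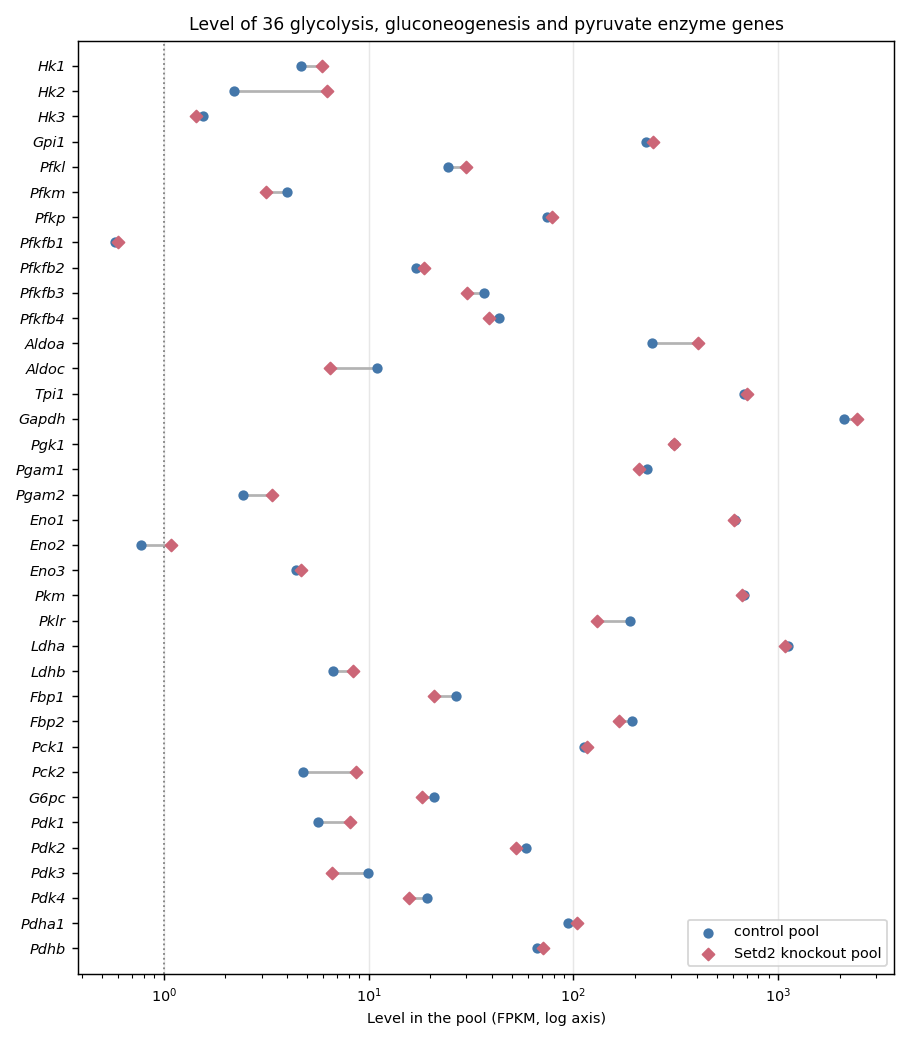
Level of each of the 36 enzyme genes in the control pool (circles) and the knockout pool (diamonds), in FPKM on a log axis, with 1 library per point and a dotted line at 1 FPKM. The symbols lie close together for most genes, and the widest gaps are those of Hk2 (2.21 and 6.23) and Pck2 (4.80 and 8.64), with Aldoa (241 and 408) and Aldoc (10.9 and 6.48).

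Promoter stretches are shown for the 3 members that were at least 1.5-fold higher, to set their upstream letters side by side. They are the 250 bases before an annotated start, from RefSeq on GRCm38.p6 (the assembly named mm10), 5′ to 3′ on the gene's strand. For Aldoa and Pck2 these starts differ from the outer ends of the gene positions given below. Capitals mark the letters ACGTG, the core of the hypoxia response element, here read on the opposite strand as CACGT. Aldoa has 3 annotated starts, of which the first held 0 matches and the others 1 each. The stretches of these others overlap, and their match is the same site. The second from the 5′ end is shown, so the stretch printed for Aldoa is one with a match. Aldoc, at least 1.5-fold lower, held 0 matches at both of its annotated starts and is not shown.
Hk2, chr6:82774455-82774704, minus strand: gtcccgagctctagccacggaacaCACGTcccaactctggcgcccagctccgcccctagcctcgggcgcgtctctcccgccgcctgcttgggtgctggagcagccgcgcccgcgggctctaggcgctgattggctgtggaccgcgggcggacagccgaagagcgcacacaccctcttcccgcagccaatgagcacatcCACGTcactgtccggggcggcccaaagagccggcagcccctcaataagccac
Aldoa, chr7:126799255-126799504, minus strand: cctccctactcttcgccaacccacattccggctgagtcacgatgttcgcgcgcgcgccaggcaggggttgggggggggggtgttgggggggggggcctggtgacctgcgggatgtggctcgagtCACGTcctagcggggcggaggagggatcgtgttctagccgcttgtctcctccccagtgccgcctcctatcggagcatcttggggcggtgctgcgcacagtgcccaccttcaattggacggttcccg
Pck2, chr14:55540016-55540265, plus strand: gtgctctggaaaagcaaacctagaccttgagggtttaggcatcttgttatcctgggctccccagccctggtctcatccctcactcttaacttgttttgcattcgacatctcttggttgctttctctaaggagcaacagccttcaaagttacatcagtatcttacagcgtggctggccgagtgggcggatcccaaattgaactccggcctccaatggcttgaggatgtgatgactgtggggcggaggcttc

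The Hk2 stretch held 2 matches, beginning 226 and 52 bases before the start, the Aldoa stretch held 1 at 126 bases, and the Pck2 stretch held 0. Both strands were searched. Among the 36 members, 14 had a match upstream of at least 1 start (38.9%), against 18.5% of the 27025 genes in the promoter table. By start, 18 of 56 member stretches held it (32.1%) and 16.6% of all 32851. Overlapping stretches, as for Aldoa, can count the same site again. Of the 14 with a match, Hk2, Aldoa, Pfkfb2 and Pdhb had count ratios above 1 (2.81, 1.69, 1.07 and 1.065). The others had ratios below 1. Among them were Ldha, Pgk1 and Pkm (0.966, 0.998 and 0.978) and Pdk3, Pfkm and Pfkfb3 (0.666, 0.797 and 0.828). The rest were Fbp2, Pdk2, Hk3 and Pgam1 (0.866, 0.894, 0.898 and 0.906). The longer letters CACGTG, which contain ACGTG, were present for 6 members (16.7%) and for 6.86% of all genes. A match describes the letters in this window only.

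Hexokinases, which trap glucose as glucose-6-phosphate, differed between isoforms. Hk2, the inducible isoform found in muscle, fat and many tumours (gene identifier 15277, mm10 chromosome 6, 82725025 to 82774454), was at 2.21 FPKM in controls and 6.23 in knockouts. Its expected counts were 109 and 301. Scaled by library total they gave a ratio of 2.81 (2.25 to 3.54), and the log2 ratio was 1.17. It went from below Hk1, the isoform of most cells, to slightly above it: Hk1 was at 4.66 and 5.93 FPKM (ratio 1.27, 1.04 to 1.57). Hk3, mainly of blood cells, was at 1.56 and 1.43 FPKM, from 42 and 37 counts, and its interval includes 1. The 11 myeloid markers summed to 153.5 and 130.4 FPKM, with Lyz2 as the largest term (107.7 and 77.0). Of the 11, 6 had a log2 ratio above 0 and 4 below, with a median of 0.08. The most abundant of the 4 hexokinase genes compared was none of these but Hkdc1, a related gene expressed in the gut, at 101.4 FPKM in controls and 65.6 in knockouts (ratio 0.647, 0.612 to 0.685).

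The balance within the hexokinase step was compared with the odds ratio of counts, in which gene length and library scaling cancel. Against Hkdc1, Hk2 was 4.35-fold higher in the knockout pool (counting interval 3.45 to 5.50) and Hk1 1.97-fold higher (1.59 to 2.44). The share of Hk2 in the summed FPKM of these 4 genes was 2.01% in controls and 7.86% in knockouts, and that of Hkdc1 was 92.3% and 82.8%. With Hkdc1 as the largest term, the 4 genes summed to 79.2 FPKM in knockouts and 109.8 in controls. So their sum and the inducible isoform differed in opposite directions. Mcm2 and Cd44, the crypt-list genes with the highest ratios, had log2 ratios of 1.29 and 1.17, and Mgam and Lct, the lowest of the enterocyte list, of -0.76 and -0.75. Their part in the result was not tested.

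Glucose-6-phosphate isomerase and the phosphofructokinases were close between the pools. Gpi1, the isomerase, was at 226 FPKM in controls and 243 in knockouts (ratio 1.08, 1.04 to 1.12). Phosphofructokinase commits sugar to glycolysis, and its platelet-type subunit Pfkp led in both pools, at 74.6 and 78.2 FPKM (1.05, 0.994 to 1.11). The liver-type subunit Pfkl was at 24.5 and 29.9 FPKM (1.22, 1.11 to 1.34), and the muscle-type Pfkm at 3.98 and 3.14 (0.797, 0.586 to 1.08). The order of the 3 subunits was the same in both pools, with Pfkp at 72.4% and 70.3% of the step. Against Pfkp, Pfkl had an odds ratio of 1.16 (1.04 to 1.30), below the 1.5-fold rule.

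Fructose-2,6-bisphosphate, the main activator of phosphofructokinase, is made and broken down by the Pfkfb enzymes. Pfkfb4 was at 43.5 FPKM in controls and 38.7 in knockouts (0.889, 0.821 to 0.964). Pfkfb3, the isoform with the highest kinase to phosphatase activity, was at 36.5 and 30.1 FPKM (0.828, 0.769 to 0.890). Pfkfb2, the heart-type isoform, was at 17.0 and 18.7 (1.07, 0.984 to 1.17). All 3 lay within 1.5-fold. Tigar, a phosphatase for the same metabolite that is not a member of the set, was at 3.33 and 3.86 FPKM.

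Aldolase splits fructose-1,6-bisphosphate, and Aldoa and Aldoc differed in direction. Aldoa, the isoform of muscle and most proliferating cells (identifier 11674, chromosome 7, 126795234 to 126800994), was at 241 FPKM in controls and 408 in knockouts. Its ratio was 1.69 (1.62 to 1.76), from 3224 and 5342 counts. Aldoc, best known from brain (identifier 11676, chromosome 11, 78323073 to 78327781), was at 10.9 and 6.48 FPKM (0.592, 0.481 to 0.726). Thus the abundant Aldoa was higher in the knockout pool and the minor Aldoc was lower. Enterocyte markers, at 33082 and 24058 FPKM in sum, had a ratio of 0.727 and the crypt markers one of 1.46, and their part in the result was not tested.

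**Figure D2:**
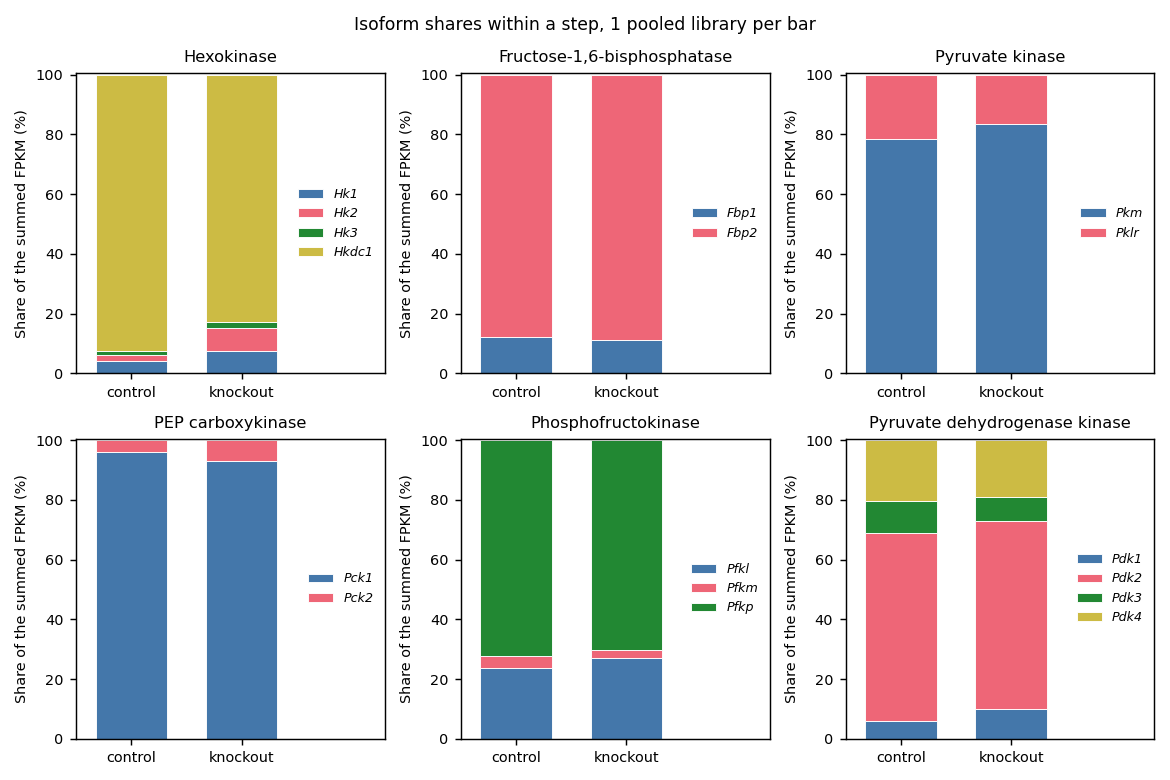
Share of each isoform in the summed FPKM of the isoforms compared in a step (percent, bars from 0 to 100), in the control and the knockout pool, for 6 steps with several isoforms and 1 pooled library per bar. Hk2 takes 2.01% and 7.86% of the hexokinase bars, Pck2 4.08% and 6.87% of the PEP carboxykinase bars, and Pklr 21.6% and 16.4% of the pyruvate kinase bars.

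The middle steps, run mostly by single genes, held the most abundant transcripts of the set and differed little. Tpi1, triose phosphate isomerase, was at 677 FPKM in controls and 701 in knockouts (1.04, 1.01 to 1.07). Gapdh, which makes the first NADH of the pathway and was the most abundant member, was at 2083 and 2432 FPKM (1.15, 1.13 to 1.17). Pgk1, which makes the first ATP, was at 309 FPKM in both pools (0.998, 0.959 to 1.04). At these counts the intervals are narrow, so Gapdh differed by more than counting error, and its log2 ratio was 0.22 as deposited and 0.11 after TMM scaling. Tpi1 turned from 0.05 to -0.06 under the same scaling. The counts of Gapdh, Aldoa and Eno1 were not all whole, nor were those of other members such as Gpi1, Pck1 and Pdk1. RSEM divides reads that fit several genes, and part of the reads of such members could belong to near-identical copies.

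Phosphoglycerate mutase and enolase were each dominated by 1 isoform. Pgam1, the widely expressed mutase, was at 229 FPKM in controls and 208 in knockouts (0.906, 0.865 to 0.950), and muscle-type Pgam2 at 2.43 and 3.39, from 19 and 26 counts. Bpgm, which makes 2,3-bisphosphoglycerate in red cells and is not a member, was at 41.3 and 35.9 FPKM (0.868, 0.780 to 0.965), while the globin gene Hbb-bs was at 26.8 and 117. Eno1 was at 615 and 608 FPKM (0.989, 0.962 to 1.02). Neuronal Eno2 was at 0.77 and 1.08 FPKM and muscle-type Eno3 at 4.43 and 4.67, both with intervals that include 1. The 13 markers of enteric neurons and glia summed to 22.6 and 26.3 FPKM, of which Vip gave 5.03 and 9.41. Of these 13, 5 were measured, 2 with a log2 ratio above 0 and 3 below (median -0.17). The 13 of skeletal and cardiac muscle summed to 33.8 and 31.5 FPKM, of which Acta1 gave 12.6 and 7.16. Of those, 7 were measured, 3 above 0 and 4 below (median -0.13).

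Pyruvate kinase showed a lower level of the liver-type gene beside a steady main isoform. Pklr, the gene of liver and red cells (identifier 18770, chromosome 3, 89136122 to 89146815), was at 188 FPKM in controls and 131 in knockouts. Its ratio was 0.693 (0.661 to 0.726) and its log2 ratio of -0.53 lay just within the 1.5-fold rule; it passed after scaling by the median ratio (-0.61) or TMM (-0.64). Pkm, which encodes the M1 and M2 forms by alternative splicing, was at 683 and 668 FPKM (0.978, 0.956 to 1.001). The table gives 1 value for both splice forms, so their balance was not analysed here. Against Pkm, Pklr had an odds ratio of 0.708 (0.672 to 0.746), and its share of the step was 21.6% and 16.4%.

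Lactate dehydrogenase was almost wholly Ldha, the form that favours lactate, at 1116 FPKM in controls and 1078 in knockouts (0.966, 0.944 to 0.987). Ldhb, the heart-type subunit, was at 6.67 and 8.43 FPKM (1.24, 0.910 to 1.70). Ldha held 99.2% and 98.7% of the step. Ldhd, a mitochondrial D-lactate dehydrogenase of a separate family, was at 2.84 and 6.19 FPKM (2.18, 1.58 to 3.05) and is not a member of the set. Thus the transcripts of both pools favoured the same L-lactate subunit.

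**Figure D3:**
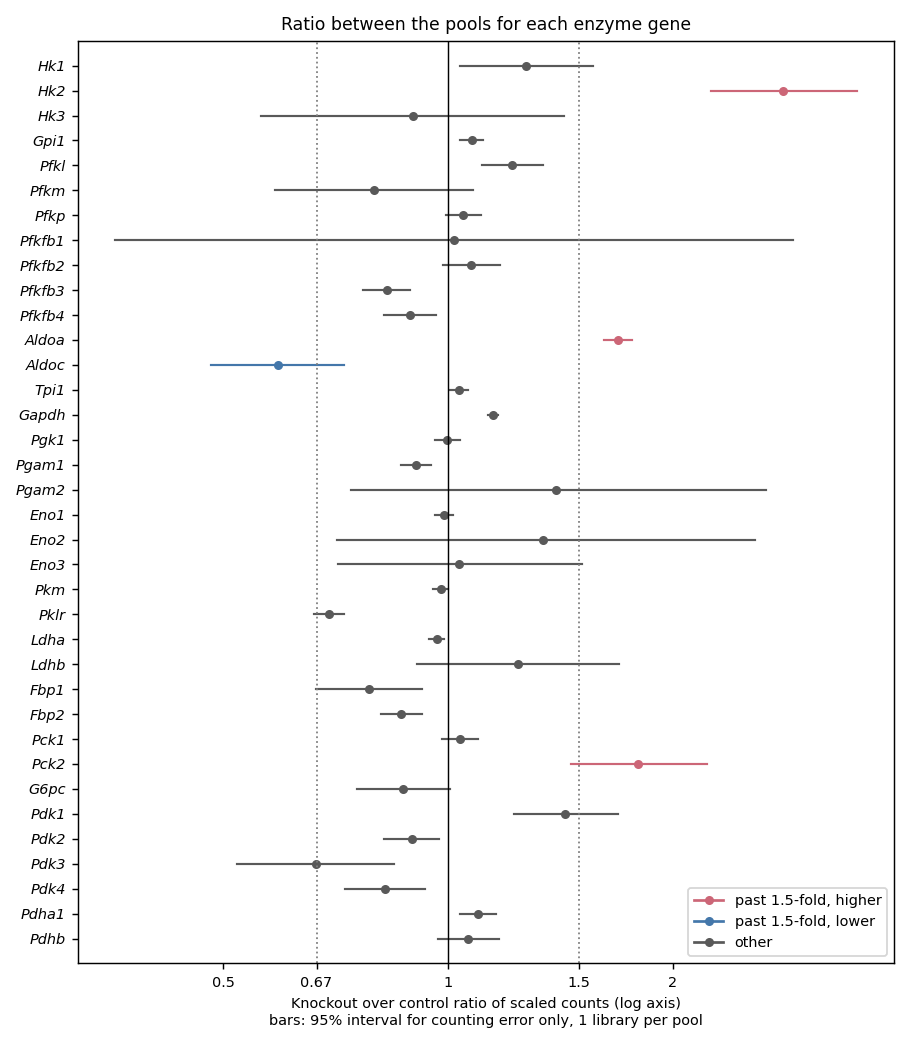
Knockout over control ratio of scaled counts for each of the 36 enzyme genes on a log axis, with bars for the 95% interval of counting error only and dotted lines at 1.5-fold. Hk2 (2.81), Pck2 (1.80) and Aldoa (1.69) lie past 1.5-fold above 1 and Aldoc (0.592) below it, and Pdk3 (0.666) and Pklr (0.693) lie near the lower line.

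Among the gluconeogenic genes, Pck2 alone was past 1.5-fold. Pck2, the mitochondrial PEP carboxykinase (identifier 74551, chromosome 14, 55540263 to 55550020), was at 4.80 FPKM in controls and 8.64 in knockouts, from 145 and 256 counts, a ratio of 1.80 (1.46 to 2.22). The cytosolic Pck1, far more abundant, was at 113 and 117 FPKM (1.04, 0.983 to 1.10). Against Pck1, Pck2 had an odds ratio of 1.73 (1.40 to 2.16), and its share of the step was 4.08% and 6.87%. Fructose-1,6-bisphosphatase was led by Fbp2, usually called the muscle type, at 193 and 167 FPKM (0.866, 0.814 to 0.922). Fbp1, the liver type, was at 26.7 and 20.9 FPKM (0.783, 0.665 to 0.922). G6pc, the catalytic subunit of glucose-6-phosphatase that releases free glucose, was at 20.9 and 18.3 FPKM (0.871, 0.755 to 1.005), and its ubiquitous relative G6pc3 at 12.9 and 14.1.

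The pyruvate dehydrogenase kinases, which phosphorylate and inhibit the complex, differed in both directions. Pdk1, an isoform induced by hypoxia, was at 5.67 FPKM in controls and 8.15 in knockouts (1.44, 1.22 to 1.69). Pdk2, the main isoform here, was at 58.8 and 52.6 (0.894, 0.822 to 0.973). Pdk3 was at 9.98 and 6.65 FPKM (0.666, 0.522 to 0.847). Its log2 ratio of -0.52 after the pseudocount lay within the 1.5-fold rule, which it passed under median ratio and TMM scaling. Pdk4, the isoform induced by fasting and fatty acids, was at 19.2 and 15.8 FPKM (0.823, 0.728 to 0.931). Against Pdk2, Pdk1 had an odds ratio of 1.61 (1.34 to 1.93) and Pdk3 of 0.745 (0.575 to 0.962), and the order of Pdk1 and Pdk3 differed between the pools. The E1 subunits of the complex itself were close, with Pdha1 at 94.4 and 104 FPKM (1.10, 1.04 to 1.16) and Pdhb at 66.5 and 70.8 (1.06, 0.969 to 1.17).

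Over the steps compared in this way, 21 isoforms in 11 steps were compared with the leading one of their step. A 1.5-fold odds ratio with an interval that leaves out 1 was found for 5 (Hk1, Hk2, Pck2, Pdk1 and Ldhd). Each was higher in the knockout pool relative to the leading isoform. No share over all genes was computed for such odds ratios. The 1.5-fold rule for single genes called 6.97% of all measured genes higher and 2.64% lower. It did not call Hk1 (ratio 1.27) or Pdk1 (1.44), whose leading isoforms Hkdc1 and Pdk2 had ratios of 0.647 and 0.894. The aldolase genes were not among those compared, and there Aldoc had a count ratio of 0.592 beside 1.69 for Aldoa. For the other 16 the difference was smaller or within counting error, and among the 21 Pklr had the lowest odds ratio, 0.708. Intervals wide enough to hold a 1.5-fold difference were those of low genes such as Eno2 (0.716 to 2.60), Pgam2 (0.818 to 2.95) and Hk3 (0.864 to 2.22).

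Among genes that bring sugars to the pathway, the glucose transporter Slc2a1 was higher in the knockout pool and the fructose kinase Khk lower. Slc2a1, the transporter of most dividing cells, was at 7.55 FPKM in controls and 18.2 in knockouts (2.41, 2.01 to 2.89). In the same list of 12 measured genes for sugar entry and the use of fructose and galactose, 1 was at least 2-fold higher and 0 lower. By the 1.5-fold rule 2 were higher (Slc2a1 and Galt) and 2 lower (Khk and Hkdc1), beside 6.97% and 2.64% of all measured genes. After TMM scaling the counts were 1 and 4, beside 671 and 504 of 13142 genes. The median log2 ratio was -0.32. Khk, the ketohexokinase that starts fructose use, was at 285 and 182 FPKM (0.640, 0.607 to 0.674). Galt, of galactose use, was at 16.4 and 25.5 FPKM (1.55, 1.34 to 1.79). Slc5a1, the sodium-coupled glucose transporter of the brush border and the most abundant gene of the list, was at 1239 and 910.4 FPKM (0.735, 0.724 to 0.746).

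The pentose phosphate pathway, a branch from glucose-6-phosphate that makes NADPH and ribose, had 7 of 8 genes with a ratio above 0, and the same 7 under TPM, median ratio and TMM scaling, beside 62.5% of all measured genes as deposited. Its median log2 ratio was 0.35, with 0 genes past 1.5-fold. Pgd, of the oxidative branch, was at 160 FPKM in controls and 225 in knockouts (1.41, 1.34 to 1.47), and Tkt, transketolase, at 138 and 179. G6pdx, the entry enzyme, was at 23.5 and 30.1 FPKM (1.28, 1.14 to 1.43) (named here with its values already known). Taldo1, transaldolase and the most abundant, was at 289 and 284 FPKM. The 15 measured genes of glycogen metabolism had a median of -0.05, with 0 called by the 1.5-fold rule, which uses FPKM plus 1. After the pseudocount of 1 the highest log2 ratio was that of Gyg (6.68 and 9.42 FPKM) and the lowest that of Pygl (3.28 and 2.24). By scaled counts Pgm2l1 (1.51) was above Gyg (1.41) and Pygm (0.624) below Pygl (0.683), and Pgm1 was the most abundant (123 and 123). Pygm had 31 and 19.06 counts and reached 1 FPKM only in the control pool, and its interval (0.333 to 1.14) includes 1.

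Downstream of pyruvate, the lists of pyruvate entry and of the citric acid cycle had medians below 0. The list of lactate transport had a median above 0 as deposited, beside 0.08 over all measured genes. In any of the 3 lists 0 genes were past 1.5-fold. Among 13 measured partners of pyruvate dehydrogenase and genes of pyruvate entry, 10 had a ratio below 0 and 0 were past 1.5-fold, with a median log2 ratio of -0.18. Of all 13253 measured genes, 4931 had a ratio below 0 as deposited. Mpc1 and Me2 had the lowest ratios, at 83.0 against 114 and 124 against 167 FPKM, of which Mpc1 is a subunit of the mitochondrial pyruvate carrier and Me2 a malic enzyme. Pcx, pyruvate carboxylase, was at 35.3 against 31.5 FPKM and had the highest. Mdh2, the most abundant gene of this list, was at 1273 against 1490 FPKM. In the citric acid cycle list 11 of 16 genes were below 0 as deposited and 14 under TMM scaling, again with 0 past 1.5-fold, a median of -0.13 and values between -0.33 (Sucla2) and 0.18 (Idh2 and Suclg2). In the list of lactate and monocarboxylate transport, 3 of 4 measured genes had a ratio above 0, beside 62.5% of all measured genes, and the median was 0.12. Under median ratio scaling 2 of 4 were above 0 (median 0.03), and under TMM scaling 2 of 4 (median 0.01). Slc16a1 was at 21.4 FPKM in both pools, Slc16a3 at 43.2 against 41.0 and their chaperone Bsg at 574 against 514. Emb had the highest log2 ratio of the list (0.41), at 4.92 against 3.45 FPKM (1.43, 1.06 to 1.925).

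**Figure D4:**
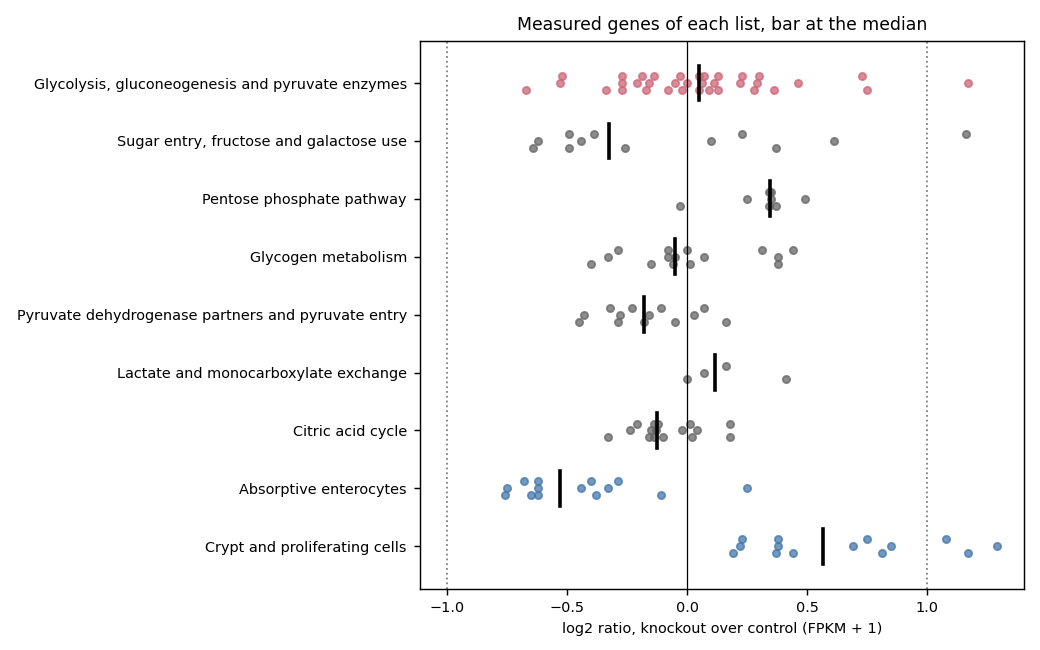
Log2 ratio of FPKM plus 1, knockout over control, for each measured gene of the enzyme set, of 6 related pathway lists and of 2 cell type marker lists, with a black bar at each median, a line at 0 and dotted lines at 2-fold. The enzymes spread around 0 (median 0.05), the pentose phosphate genes lie higher (0.35), and the enterocyte and crypt markers lie on opposite sides (-0.53 and 0.57).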

How the data were processed

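Intestinal RNA of 2 pools, each a mixture from 3 littermates, was sequenced, with 1 library per genotype. Per the labels' protocols, the authors mapped reads to mm10 with BWA and Bowtie2 (named in the submitters' processing notes) and quantified genes with RSEM. Versions are not given in the sources used here. The sample files hold the authors' expected counts and FPKM, and the FPKM columns of the deposited series table match them with 0 mismatches. The 36 members and all lists were chosen with earlier results of these data known. Calls used log2((knockout FPKM + 1)/(control FPKM + 1)) among genes with 1 FPKM or more in at least 1 library. Count ratios used expected counts rounded to whole numbers and scaled to library totals, with a 95% Clopper-Pearson interval. Odds ratios between isoforms with at least 10 counts in the higher library used the exact conditional interval (scipy 1.17.1, Python 3.11.15). Intervals cover counting error only, not mice or pools, and 3 counts correspond to 0.341 and 0.347 CPM. TMM factors came from edgeR 4.0.16, used for scaling only and for no test. Positions of the 36 members came from RefSeq. The call rules and intervals were tested on simulated counts with counting error only. The differences put in were all larger than 2-fold. Differences of 1.5-fold to 2-fold and variation between mice or pools were therefore not covered. From 8 pathway lists and 14 marker lists, genes were named by a rule: up to 2 with the highest and 2 with the lowest ratio, and the most abundant. Not every gene that met the rule is named. Alternatives were other pseudocounts, filters, scalings and CPM. Some results on isoforms are not reported here.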

Additional observations from a re-analysis of the deposited data

How the results depend on the processing

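Across 8 alternative settings, Hk2, Aldoa and Pck2 remained the members at least 1.5-fold higher, Hk2 the member at least 2-fold higher, and Aldoc stayed 1.5-fold lower. The number of members 1.5-fold lower was 1, and it was 3 under median ratio scaling and 3 under TMM scaling, where Pdk3 and Pklr were added. These scalings divide the knockout values by 1.06 and 1.08. Of 275 values for single members, 245 stayed within their counting interval, 30 moved beyond it and 0 of the called ones changed sign. The signs of Pfkp, Tpi1, Eno3 and Pck1 turned under both scalings, and those of Gpi1 and Pdhb under TMM scaling. Over all genes, 369 were at least 2-fold higher and 170 lower, against 699 and 282 with a pseudocount of 0.1, 613 and 236 as TPM, 191 and 84 with a filter of FPKM 5, and 544 and 144 from CPM, where 79.1% of the called genes were higher in place of 68.5%. Of the 5 isoforms past 1.5-fold against the leading one, all 5 had 50 or more counts, and 5 passed by FPKM. No paired analysis was possible because each genotype had 1 library. For the same reason no library could be left out.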

Other observations

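Of 15 measured targets of hypoxia signalling outside glycolysis, 12 had a positive log2 ratio, and 11 under median ratio or TMM scaling, with a median of 0.19. Over all measured genes 62.5% had a ratio above 0 as deposited. By the 1.5-fold rule 3 were higher and 0 lower, beside 6.97% and 2.64% of all genes. P4ha2, a collagen prolyl hydroxylase subunit, was at 5.41 FPKM against 1.24 in the control pool (ratio 4.36, 2.80 to 7.04), and Car12, a carbonic anhydrase, at 3.67 against 1.84. The lowest were Adm, the adrenomedullin gene (1.18 against 1.96, from 14.0 and 23.6 counts), and Egln3, a prolyl hydroxylase of the hypoxia factors (33.2 against 39.4). Car9, a carbonic anhydrase and the most abundant member, was at 71.4 against 49.8 FPKM (1.43, 1.31 to 1.57).

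Among 26 transcription and signalling regulators of glucose metabolism, 1 was 1.5-fold higher and 1 lower, beside 6.97% and 2.64% of all genes, and the median log2 ratio was -0.02. Myc, a driver of growth and glycolytic genes, was at 10.04 FPKM against 5.80 (1.73, 1.38 to 2.18). Mlxipl, the carbohydrate-responsive factor ChREBP, was at 31.0 against 49.7 (0.623, 0.575 to 0.675). Hif1a was at 15.2 against 14.8 FPKM (named with its values already known). Creb3l3, a liver and gut factor of lipid and fasting metabolism, was at 233 against 273, and Prkaa1, a catalytic subunit of AMP-activated kinase, at 8.58 against 6.82.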
